A study of Homo sapiens with 11 samples.

Results

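The genes described here are 9 that are read together as signs of trophoblast or of a simple epithelium. They are the transcription factor genes GATA2, GATA3, TFAP2A, TFAP2C and CDX2 and the keratin genes KRT7, KRT8, KRT18 and KRT19. They were taken by gene name from a fixed list, and all 9 of 9 were found among the 23287 genes of each deposited table. The libraries came from the human embryonic stem cell lines H1 and H7, with 11 libraries in 11 groups and 1 library per group. In 9 of them the cells had been infected with lentivirus carrying a short hairpin RNA (shRNA) and were collected 5 days later. The 3 shRNAs were a control, one labelled uCCNE1 and one labelled pCCNE1, and CCNE1 encodes cyclin E1, of which pCCNE1 is a splice form found in primates. Each was used in primed H1 cells, in H7 cells kept in the naive medium 5iLA and in H1 cells kept in the naive medium t2iGo. The remaining 2 libraries came from untreated H7 cells, 1 primed and 1 in 5iLA, which had neither virus nor shRNA. Line and medium change together between 5iLA and the other shRNA cultures, so the 2 cannot be told apart there. No label says that libraries came from separate cultures, so every p-value here rests on library-to-library spread alone, and that spread may be technical.

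Trophoblast is the outer lineage of the blastocyst and forms the placenta. GATA2, GATA3, TFAP2A and TFAP2C bind regulatory DNA in trophoblast progenitors and are used as a combined marker of that lineage. TFAP2C is also expressed in naive human pluripotent cells, so its presence alone does not mark trophoblast. Keratins build intermediate filaments from pairs of a type II chain, here KRT7 and KRT8, and a type I chain, here KRT18 and KRT19. KRT8 and KRT18 are the first keratins made in the embryo, whereas KRT7 and KRT19 are commonly used to stain trophoblast and amnion.

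Promoter sequences from RefSeq on build GRCh38.p14 were available for 5 of the 9 genes, in 12 windows. Those of GATA2 and GATA3 are shown because both genes were highest in 5iLA cells and above the control library with both CCNE1 shRNAs there. Each run holds 200 bases, read 5′ to 3′ on the strand of the gene and ending 50 bases before the RefSeq start site. Capitals mark GCCNNNGGC, a motif of AP-2 factors such as TFAP2A and TFAP2C.

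GATA2, chr3:128493252-128493451, minus strand: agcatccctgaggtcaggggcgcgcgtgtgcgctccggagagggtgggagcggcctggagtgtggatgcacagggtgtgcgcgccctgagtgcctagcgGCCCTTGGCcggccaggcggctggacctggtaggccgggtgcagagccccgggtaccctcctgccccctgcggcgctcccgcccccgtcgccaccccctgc

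GATA3, chr10:8054438-8054637, plus strand: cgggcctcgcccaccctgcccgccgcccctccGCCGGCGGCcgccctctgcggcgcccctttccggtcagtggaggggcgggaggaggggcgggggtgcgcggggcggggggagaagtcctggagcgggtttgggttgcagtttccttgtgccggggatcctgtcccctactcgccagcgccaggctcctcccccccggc

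The start sites used lie 16 bases (GATA2) and 122 bases (GATA3) from the start of the deposited transcript in GENCODE. The motif begins 151 bases before the start of GATA2 and 218 bases before that of GATA3. With both strands searched in 300-base windows, 23.2% of 34796 RefSeq promoter windows held it. The GATA motif, searched on both strands as AGATAA with T also allowed as its first and G as its last letter, was in neither of these 2 windows and in 25.03% of all. Such matches describe letters and do not show binding.

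Values are RPKM, which count reads per length of transcript and per size of library and so put genes of different length on one scale. Depth, estimated from the value of 1 read, ranged from 6.28 to 13.996 M reads over the t2iGo libraries, from 11.5 to 16.8 over the 5iLA ones with shRNA and from 19.2 to 24.0 over primed H1. The untreated libraries had 13.6 M (primed) and 24.9 M reads (5iLA). Protein-coding entries held 95.3% to 95.5% of all RPKM in primed H1, 69.1% to 79.9% in 5iLA with shRNA and 79.5% to 83.2% in t2iGo. In untreated cells they held 65.3% (5iLA) and 86.3% (primed). The 5iLA control library had a summed RPKM of 224314, against 139202 and 140408 in the 2 libraries compared with it. CCNE1, read as a whole gene, was at 14.1 RPKM in 5iLA control cells, 5.27 with uCCNE1 and 8.38 with pCCNE1 shRNA, so the splice form itself was not measured.

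Naive-state markers separated the cultures differently from their labels. The summed level of 14 naive genes was 1039 to 1922 RPKM in the 5iLA shRNA libraries and 343 in untreated 5iLA cells. In the libraries labelled t2iGo naive it was 6.19 to 8.71 RPKM, beside 4.29 to 5.62 in primed H1. DPPA5, a gene of naive cells named after its values were seen, was at 0.138 RPKM in t2iGo control cells. It was listed at 0 in the t2iGo libraries with a CCNE1 shRNA, against 156 to 273 RPKM in the 5iLA shRNA libraries. The label is therefore used below only as the name of the medium.

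TFAP2C (NM_003222, chromosome 20), the AP-2 gamma factor, was the most abundant of the 5 regulators in every library. Its level was 19.9 RPKM with control, 14.9 with uCCNE1 and 15.6 with pCCNE1 shRNA in 5iLA H7. In t2iGo H1 the values were 5.56, 5.78 and 5.58 RPKM in the same order, and in primed H1 they were 1.96, 1.001 and 1.45. All 3 cultures were separate, with 5iLA highest and primed H1 lowest. Untreated cells had 21.0 RPKM in 5iLA and 1.31 when primed, so the 5iLA values with and without virus were close.

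GATA2 (NM_032638, chromosome 3), a zinc finger factor of trophoblast and blood progenitors, was at 0.741 RPKM in 5iLA control cells, 1.99 with uCCNE1 and 2.18 with pCCNE1 shRNA. These stand for an estimated 42, 78 and 98 reads. In t2iGo it was at 0.0958, 0.125 and 0.0472 RPKM, and in primed H1 at 0.243, 0.0667 and 0.196 (control, uCCNE1, pCCNE1), which is 1 to 16 reads. Untreated 5iLA cells had 1.88 RPKM, and GATA2 was listed at 0 in untreated primed cells, where counting error alone allows up to 0.0807 RPKM. The lowest 5iLA library was thus above every other library without 5iLA.

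GATA3 (NM_002051, chromosome 10), which acts early in trophoblast specification, was likewise highest in 5iLA but lowest in primed H1. It was at 0.743 RPKM in 5iLA control cells, 1.36 with uCCNE1 and 1.35 with pCCNE1 shRNA, from an estimated 33, 42 and 48 reads. Levels in t2iGo were 0.163, 0.177 and 0.315 RPKM and in primed H1 0.104, 0.0631 and 0.0607, each from 3 to 6 reads. Untreated 5iLA cells had 2.32 RPKM and untreated primed cells 0.0239, which is a single read.

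TFAP2A (NM_003220, chromosome 6), the AP-2 alpha factor of trophoblast, skin and neural crest, did not order the 5iLA libraries in the same way. It stood at 0.806 RPKM with control, 0.574 with uCCNE1 and 1.96 with pCCNE1 shRNA, from an estimated 28, 14 and 54 reads, so only the pCCNE1 library was high. The 95% counting intervals of the control (0.534 to 1.16 RPKM) and uCCNE1 (0.320 to 0.983) libraries overlapped, while that of pCCNE1 (1.47 to 2.55) met neither. Values in t2iGo were 0.267, 0.263 and 0.495 RPKM, in primed H1 0.202, 0.0153 and 0.144, and in untreated cells 2.19 (5iLA) and 0.0928 (primed). TFAP2A-AS1 and TFAP2A-AS2 overlap its exons on the other strand in GENCODE, and whether counting used strand is not given, so its reads may include theirs.

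CDX2 (NM_001265, chromosome 13), a homeobox factor of mouse trophectoderm and of intestine, was near the detection limit in all 11 libraries. Its highest value was 0.530 RPKM in t2iGo with uCCNE1 shRNA, with 0.181 in control and 0.202 with pCCNE1. In 5iLA it was at 0.0507, 0.0753 and 0.320 RPKM and in primed H1 at 0.0667, 0.0629 and 0.108 (control, uCCNE1, pCCNE1). Untreated cells had 0.0637 (primed) and 0.101 (5iLA). At an estimated 3 to 21 reads per library, on a transcript length that the deposited annotation may not share, the counting interval of the 5iLA library with pCCNE1 shRNA (0.183 to 0.503 RPKM) did not meet that of its control (0.00908 to 0.129).

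KRT18 (NM_000224, chromosome 12) was the most abundant of the 9 genes in every library except the 5iLA control, where TFAP2C was. In 5iLA H7 its level was 18.6 RPKM with control, 35.8 with uCCNE1 and 31.3 with pCCNE1 shRNA. It was 89.2, 90.5 and 97.2 RPKM in t2iGo and 78.9, 99.7 and 102 in primed H1, so those cultures overlapped and 5iLA lay below both. KRT8 (NM_002273, chromosome 12), its usual partner, was at 8.04, 15.5 and 19.6 RPKM in 5iLA, at 36.6, 30.2 and 25.5 in t2iGo and at 56.7, 45.3 and 44.3 in primed H1, again in the order control, uCCNE1, pCCNE1. The KRT8 levels of the 3 cultures did not overlap. Exons of KRT8 and KRT18, taken over all their isoforms, overlap on opposite strands in GENCODE. Whether the deposited transcripts do was not checked, and since the strand setting is not given, either value may include reads of its partner.

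KRT19 (NM_002276, chromosome 17), a type I keratin of simple epithelia with no tail domain, was at 3.08 RPKM with control, 9.38 with uCCNE1 and 10.6 with pCCNE1 shRNA in 5iLA. It was at 17.3, 12.8 and 9.02 RPKM in t2iGo and at 57.99, 40.6 and 24.4 in primed H1. Primed H1 was highest, and 5iLA and t2iGo overlapped because the 2 CCNE1 shRNAs lay on opposite sides of the control in them. KRT7 (NM_005556, chromosome 12), a type II keratin of ducts and trophoblast, was at 0.217, 0.539 and 0.320 RPKM in 5iLA, from 6 to 11 estimated reads. In primed H1 it was at 10.004 RPKM with control, 4.66 with uCCNE1 and 4.38 with pCCNE1 shRNA. In t2iGo it was listed at 0 with control and pCCNE1, where counting error allows up to 0.150 and 0.335 RPKM, and at 0.0632 with uCCNE1. KRT7-AS and KRT87P overlap its exons on the other strand.

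**Figure D1:**
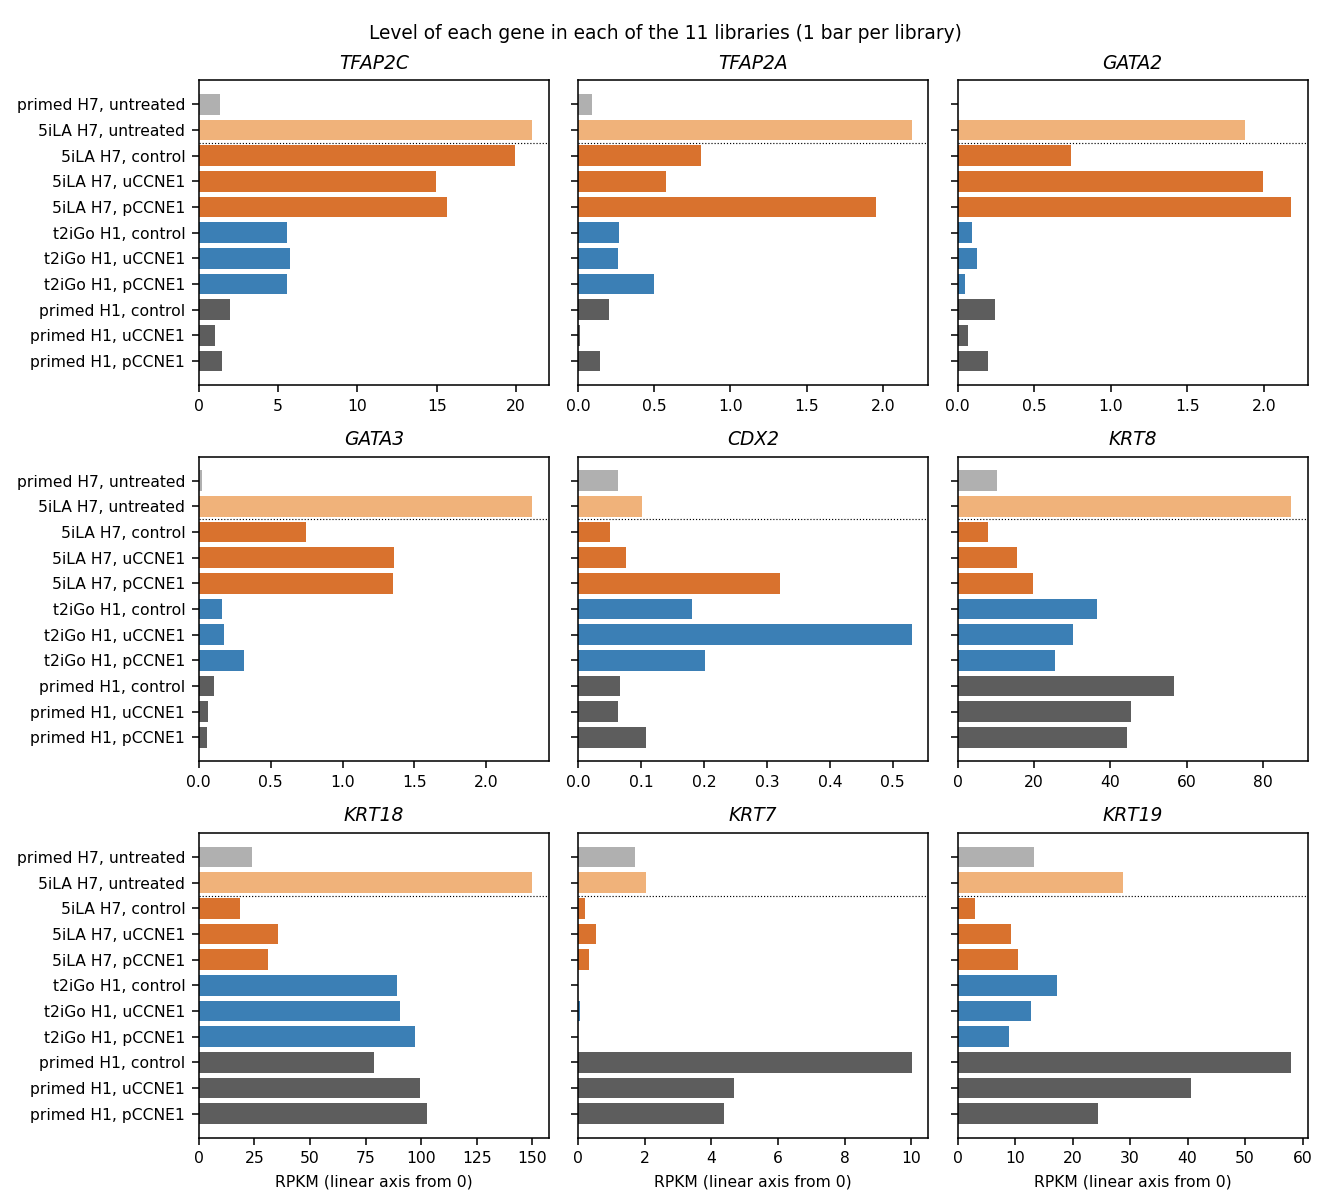
RPKM of each of the 9 genes (horizontal, linear from 0, a scale per gene) in each of the 11 libraries (1 bar per library, no error bar since groups have 1 library); the dotted line parts the untreated table from the shRNA table. TFAP2C, GATA2, GATA3 and TFAP2A are highest in 5iLA libraries, whereas KRT8 and KRT18 are lower in the 5iLA shRNA libraries than in all t2iGo and primed H1 ones and highest in untreated 5iLA.

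Cultures were compared with the shRNAs as their spread, by limma on log2(RPKM + 1) over the 12116 genes whose mean RPKM was at least 1 in the 9 shRNA libraries. TFAP2C and the 4 keratins passed that filter, and the other 4 regulators did not and could be tested only over all 23287 genes. Since a filter on the mean admits genes through their highest culture, the share of passing genes that differ is given with no weight. A difference on this scale understates the change of low genes. TFAP2C was higher in 5iLA than in primed H1 by 2.86 ± 0.18 (SE), higher in t2iGo than in primed H1 by 1.44 ± 0.18 and higher in 5iLA than in t2iGo by 1.41 ± 0.18 (limma, adjusted p = 7.57e-08, 1.65e-05 and 5.12e-05). The backgrounds were 7.74%, 8.77% and 14.9% of tested genes passing in that direction. Over all genes, GATA2 at 1.13 ± 0.23, GATA3 at 0.99 ± 0.11 and TFAP2A at 0.86 ± 0.18 were higher in 5iLA than in primed H1 (limma, adjusted p = 0.0117, 0.00177 and 0.0117), where 6.64% of genes were. Against t2iGo, GATA2 was at 1.23 and GATA3 at 0.81 (limma, adjusted p = 0.0189 and 0.00839), with a background of 8.37%, and TFAP2A was at 0.60 (limma, adjusted p = 0.0641). CDX2 did not pass in any of the 3 (limma, adjusted p = 0.170 to 0.692), nor did GATA2, GATA3 and TFAP2A between t2iGo and primed H1 (limma, adjusted p = 0.875, 0.297 and 0.327), where 6.02% passed as higher and 38.1% as lower. Counted by libraries that do not overlap, 4 of the 9 genes (TFAP2C, GATA2, GATA3 and TFAP2A) were higher in 5iLA than in primed H1 and the 4 keratins lower, with backgrounds of 8.22% and 50.6% of all genes. Against t2iGo, 5 were higher in 5iLA, KRT7 joining them, and 2 lower, KRT8 and KRT18 (13.7% and 28.4%). Between t2iGo and primed H1, 4 were higher in t2iGo (TFAP2C, GATA3, TFAP2A and CDX2) and 3 lower (KRT7, KRT8 and KRT19), beside 8.99% and 46.1%. These counts take no account of counting error. Counting intervals of GATA3, TFAP2A and CDX2 overlapped between those H1 cultures. For GATA3 with control shRNA they were 0.0594 to 0.352 RPKM (t2iGo) and 0.0319 to 0.230 (primed H1). Intervals of GATA3, TFAP2A and KRT7 also overlapped between 5iLA and t2iGo, and those of TFAP2A between 5iLA and primed H1. The counts of higher genes are therefore given with no weight.

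The keratins went the other way between the shRNA cultures. All 4 passed the test as lower in 5iLA H7 than in primed H1, KRT7 by -2.36 ± 0.25, KRT19 by -2.33 ± 0.41, KRT8 by -1.77 ± 0.29 and KRT18 by -1.72 ± 0.21 (limma, adjusted p from 3.35e-06 to 2.00e-04). In the unfiltered fit 47.6% of genes passed as lower, and 19.9% did against t2iGo. With the filter, 76.8% of all tested genes passed in that direction and the median gene lay at -1.23, so the count of 4 is near the background. Under 3 rescalings that moved the median gene to between -0.19 and -0.06, KRT7 still passed at -1.30 to -1.61, while KRT8, KRT18 and KRT19 did not (limma, adjusted p = 0.0812 to 0.371). KRT7 met the filter only through primed H1, where its mean was 6.35 RPKM, against 0.359 in 5iLA and 0.0211 in t2iGo. Its calls as lower than primed H1 are therefore given with no weight. KRT8 and KRT18 were also lower in 5iLA than in t2iGo, at -1.11 ± 0.29 and -1.71 ± 0.21 (limma, adjusted p = 0.00736 and 5.12e-05), beside a background of 40.1% and a median gene at -0.31. KRT18 kept that call under each rescaling, at -1.26 to -1.46, and KRT8 did not (limma, adjusted p = 0.0641 to 0.145). Between the H1 cultures, KRT7 and KRT19 were lower in t2iGo, at -2.77 ± 0.25 and -1.54 ± 0.41 (limma, adjusted p = 1.64e-06 and 0.00487), where 63.0% of genes were and the median gene lay at -0.82. The call on KRT19 was lost under each rescaling, at -0.42 to -0.76. KRT18 was at -0.01 and KRT8 at -0.65 as deposited (limma, adjusted p = 0.960 and 0.0633), and both turned positive under the rescalings, KRT18 to between 0.79 and 1.15 with adjusted p = 0.00222 to 0.0166 by limma.

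In untreated H7 cells, by contrast, keratins were higher in 5iLA than in primed cells. KRT8 was at 87.3 against 10.5 RPKM, which is 8.35-fold, KRT18 at 149.98 against 24.1 (6.22-fold) and KRT19 at 28.7 against 13.2 (2.17-fold). KRT7 was at 2.04 against 1.69 RPKM. TFAP2C was 16.0-fold higher, TFAP2A 23.6-fold on an estimated 3 reads in the primed library, and no fold is given for GATA2 and GATA3, which had 0 and 1 reads there. Of the 9 genes, 7 were higher by at least 1 in log2(RPKM + 1), where 5.70% of all 23287 genes were; KRT7 at 0.18 and CDX2 at 0.05 were the others. Each side is 1 library, so no test was made. In the shRNA cultures KRT8, KRT18 and KRT19 had the opposite order. The primed line there was H1, and the table is taken here as normalised separately. In the 5iLA control shRNA library these genes were at 8.04, 18.6 and 3.08 RPKM, which is also below untreated primed H7. What sets these orders apart was not tested.

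The 5iLA control shRNA library and the untreated 5iLA library hold the same line and medium in separate tables. TFAP2C was at 94.8% of its untreated level in the control library, GATA2 at 39.4%, TFAP2A at 36.8% and GATA3 at 32.0%. The keratins stood much further apart, with KRT8 10.9-fold, KRT7 9.39-fold, KRT19 9.34-fold and KRT18 8.05-fold lower with the control shRNA. Marker lists moved between these libraries too: 15 fibroblast genes summed to 5.57 RPKM with control shRNA and 286 RPKM untreated, 15 primed-state genes to 61.5 and 424, and the 14 naive genes to 1922 and 343. VIM and THY1 stand in both of the first lists. The fibroblast sum was also 404 to 494 RPKM in primed H1, 461 to 584 in t2iGo and 136 in untreated primed H7. Which cells this sum comes from was not tested, so it is not read as a measure of fibroblasts. The part of such cell states in the keratin levels was not tested, and virus, table and culture cannot be told apart. Fewer cells of a type and less RNA per cell cannot be separated in bulk libraries.

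**Figure D2:**
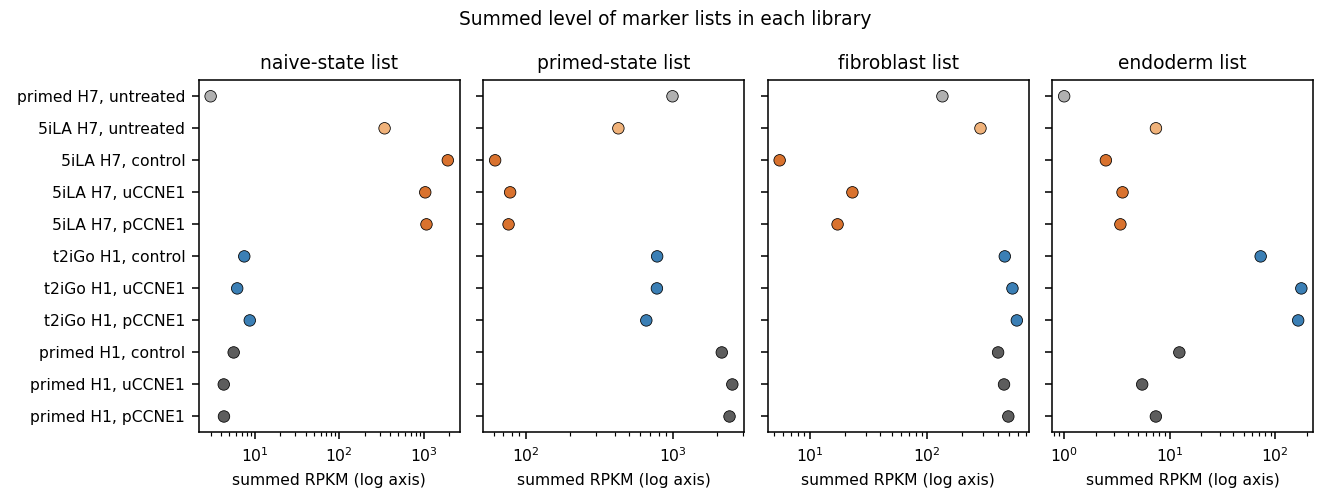
Summed RPKM (horizontal, log axis) of the naive-state, primed-state, fibroblast and endoderm lists in each of the 11 libraries (1 point per library). The 5iLA shRNA libraries are at the right of the naive panel (1039 to 1922 RPKM) and at the left of the fibroblast panel (5.57 to 23.2 RPKM), and the t2iGo libraries have the 3 highest endoderm sums (72.6 to 176 RPKM).

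The shRNA comparison in 5iLA asked whether these genes change when CCNE1 is targeted in naive cells. KRT8, KRT18 and KRT19 were higher than control with both CCNE1 shRNAs, and so were GATA2, GATA3, CDX2 and KRT7. With uCCNE1 and pCCNE1 shRNA, KRT19 was 3.05- and 3.43-fold its control, KRT8 1.93- and 2.44-fold, KRT18 1.92- and 1.68-fold, GATA2 2.69- and 2.94-fold and GATA3 1.83- and 1.82-fold. TFAP2C had values below control in both, and TFAP2A lay on either side of it. In all, 7 of the 9 genes were above control in both libraries, where 15.0% of all 23287 genes were, and 1 was below in both, where 45.5% were. All these differences share 1 control library. Counting error covers part of them: CDX2 had an estimated 3 reads in control and 4 with uCCNE1, and KRT7 had 6 in control and 7 with pCCNE1. The 95% counting interval of GATA3 in control (0.510 to 1.04 RPKM) overlapped those of both CCNE1 shRNA libraries. The 15.0% is taken over all genes, also those at or near 0.

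With the 2 CCNE1 shRNAs standing in for replicates, the mean difference from control in 5iLA was 1.43 ± 0.34 (SE) for KRT19, 1.03 ± 0.22 for KRT8 and 0.81 ± 0.19 for KRT18. None passed adjustment over 12116 genes (limma, adjusted p = 0.171 each, unadjusted p = 0.00364, 0.00230 and 0.00397). KRT7 was at 0.23 ± 0.21 and TFAP2C at -0.36 ± 0.23 (limma, adjusted p = 0.540 and 0.370). By limma 6 of 12116 genes passed in this comparison, 0.00825% of genes as higher and 0.0413% as lower; at an unadjusted p under 0.05 there were 2679. Over all tested genes the median difference was -0.32, and 69.5% of tested genes were below control in both libraries. Relative to that value, KRT19 was at 1.75, KRT8 at 1.35, KRT18 at 1.13, KRT7 at 0.55 and TFAP2C at -0.04. After rescaling over protein-coding entries, which brought the median gene to 0.05, KRT19 was at 1.96, KRT8 at 1.54 and KRT18 at 1.32 (limma, adjusted p = 0.119, 0.0955 and 0.119), and TFAP2C turned to 0.13.

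Of the 5 tested genes, 3 (KRT8, KRT18, KRT19) were at least 0.5 above control in both 5iLA libraries, where 1.63% of the 12116 genes were as deposited and 7.76% after the protein-coding rescaling. Over all 23287 genes the count was 4 of 9, with GATA2, against 1.08%. Without the filter GATA2 was at 0.83 ± 0.10 and GATA3 at 0.43 ± 0.07 (limma, adjusted p = 0.0874 and 0.149), and TFAP2A was at 0.26 ± 0.43 and CDX2 at 0.18 ± 0.20 (limma, adjusted p = 1 and 0.875). Taken singly, 5 of the 54 differences of the 9 genes between a CCNE1 shRNA library and its control reached 1 in log2(RPKM + 1). With pCCNE1 in 5iLA, KRT8 and KRT19 were that much higher, where 0.875% of tested genes were and 4.90% were as much lower. With uCCNE1 in 5iLA it was KRT19 alone (0.528% higher, 4.94% lower). With pCCNE1 in primed H1, KRT7 and KRT19 were that much lower (3.61%, and 0.924% higher). None of the 9 reached it with uCCNE1 in primed H1 (0.619% higher, 2.82% lower) or in t2iGo with pCCNE1 (0.735%, 2.72%) or uCCNE1 (0.380%, 0.636%). The unfiltered limma fit of both libraries called 254 genes, 0.253% of all as higher and 0.837% as lower, and none of the 9 was among them.

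**Figure D3:**
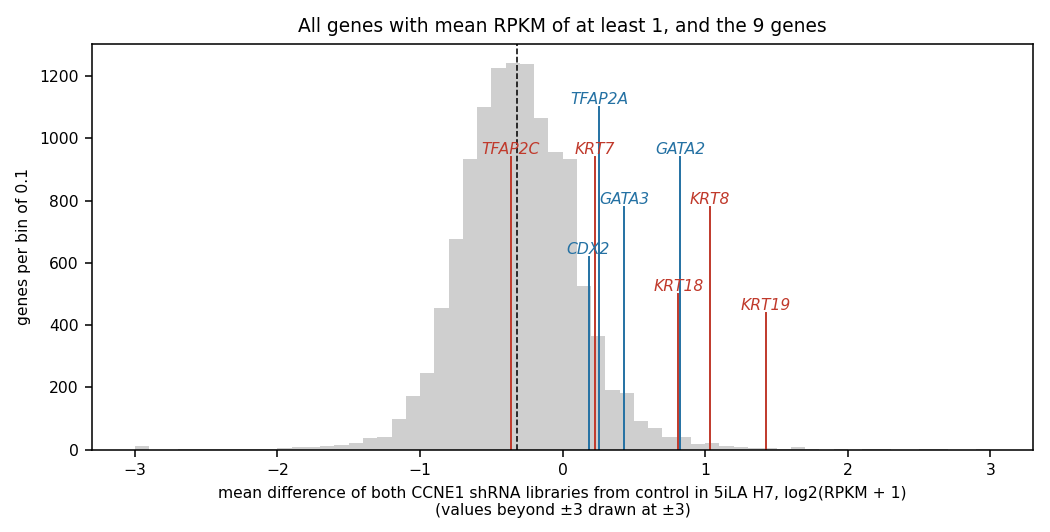
Histogram of the mean difference of both CCNE1 shRNA libraries from control in 5iLA H7 (horizontal, log2(RPKM + 1); vertical, genes per bin) over the 12116 genes tested, with the median of -0.32 dashed. Lines mark the 9 genes, red where tested and blue where under the filter; KRT18, GATA2, KRT8 and KRT19 lie at 0.81 or more, and TFAP2C lies by the median.

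The same shRNAs gave other values in the H1 cultures. CCNE1 itself, read as a whole gene, did not fall alike. With uCCNE1 and pCCNE1 shRNA it was at 55.8% and 54.4% of control in t2iGo and at 56.4% and 88.2% in primed H1. In 5iLA it was at 37.3% and 59.3%. The part of this in the differences between cultures was not tested. In t2iGo, KRT19 was at 73.5% of control with uCCNE1 and 52.0% with pCCNE1, and KRT8 at 82.4% and 69.6%, while KRT18 was at 101% and 109%. In primed H1, KRT19 was at 70.0% and 42.1%, KRT7 at 46.6% and 43.7% and KRT8 at 79.99% and 78.2%, and KRT18 was at 126% and 130%. KRT18 was therefore above its control in all 6 libraries, whereas KRT8 and KRT19 were below theirs in the 4 H1 libraries. In t2iGo no move of KRT18 is shown. Its 95% counting intervals with uCCNE1 (85.8 to 95.4 RPKM) and pCCNE1 (91.2 to 103.6) overlapped that of control (85.2 to 93.2). None of the 5 tested genes passed in t2iGo (limma, adjusted p = 1 each) or in primed H1 (limma, adjusted p = 0.291 to 0.896), where KRT7 at -0.996 ± 0.21 and KRT19 at -0.86 ± 0.34 had unadjusted p = 0.00211 and 0.0369 by limma. At least 0.5 below control in both primed H1 libraries were 2 of the 5, KRT7 and KRT19, where 6.77% of genes were. By limma in primed H1, 0.0330% of genes passed as higher and 0.0248% as lower, and in t2iGo 0.00825% and 0.0413%.

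The difference between cultures was tested directly, as the 5iLA effect minus the mean effect in t2iGo and primed H1. It was 2.18 ± 0.41 (SE) for KRT19, 1.39 ± 0.27 for KRT8, 0.70 ± 0.26 for KRT7, 0.60 ± 0.24 for KRT18 and -0.17 ± 0.28 for TFAP2C. None passed over 12116 genes (limma, adjusted p = 0.368, 0.368, 0.373, 0.377 and 0.819), although 4 of the 5 had an unadjusted p under 0.05, as did 1577 genes. KRT7 is among these 4, but it met the filter only through primed H1. Its mean difference from control was -0.996 there and 0.23 in 5iLA, so its value is given with no weight. By limma 0.0165% of genes passed as higher and 0.0330% as lower. The median gene was at -0.26. Over all genes GATA2 was at 0.90 ± 0.12 and GATA3 at 0.41 ± 0.09 (limma, adjusted p = 0.0806 and 0.202), where 1.31% passed as higher and 0.859% as lower.

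Averaged over the 3 cultures, no keratin passed as different from control. KRT18 was at 0.40 ± 0.21 (SE) with pCCNE1 and 0.42 ± 0.21 with uCCNE1 shRNA, and KRT8 at 0.11 ± 0.29 and 0.09 ± 0.29. For the 5 tested genes the limma adjusted p was 0.392 to 0.883 with pCCNE1, 0.518 to 0.922 with uCCNE1 and 0.990 to 0.997 between the shRNAs. By limma 0 of 12116 genes passed in any of these, with 1792, 1236 and 495 at an unadjusted p under 0.05. For pCCNE1 minus uCCNE1, KRT19 was at -0.34 ± 0.41 and, over all genes, TFAP2A at 0.44 ± 0.18 (limma, adjusted p = 0.990 and 0.964).

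**Figure D4:**
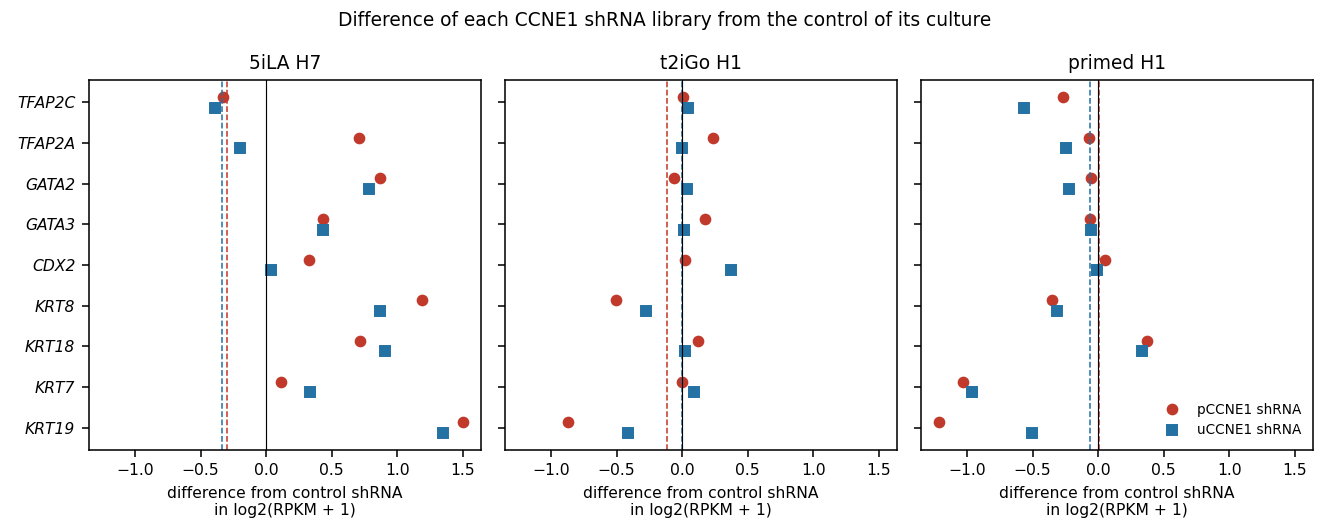
Difference of each CCNE1 shRNA library from the control of its culture (horizontal, log2(RPKM + 1)) for the 9 genes in 5iLA H7, t2iGo H1 and primed H1 (red circles pCCNE1, blue squares uCCNE1, 1 library each, dashed lines the median of all tested genes). KRT8 and KRT19 lie right of 0 in 5iLA (0.87 to 1.50) and left of it in both H1 cultures (-0.27 to -1.22).

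The make-up of the keratin pool differed between cultures. The 4 keratins held 96.7% to 99.1% of the RPKM of all 55 keratin genes in every library, and the listed copies KRT18P55, KRT8P41 and KRT19P2 reached at most 0.208 RPKM. Their summed level was higher for type I than for type II chains throughout, with a type II to type I ratio of 0.240 to 0.4998. KRT8 over KRT18 was 0.431 with control, 0.433 with uCCNE1 and 0.627 with pCCNE1 shRNA in 5iLA. It was 0.411, 0.333 and 0.262 in t2iGo and 0.718, 0.455 and 0.432 in primed H1, so it was lower than control with both shRNAs in the H1 cultures. Within type I, KRT19 held 14.2% in 5iLA control cells, 20.8% with uCCNE1 and 25.2% with pCCNE1. The same share was 16.3%, 12.4% and 8.49% in t2iGo and 42.4%, 28.96% and 19.2% in primed H1. A ratio within a library does not depend on its scaling, and it shows unequal change, not which chain changed. No test was made of these ratios.

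**Figure D5:**
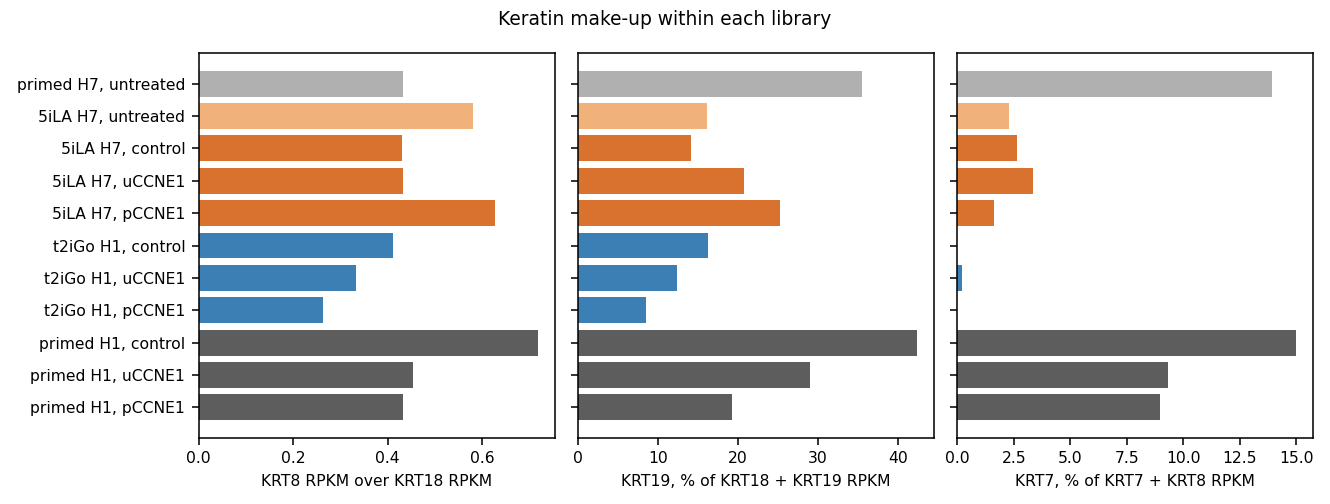
KRT8 over KRT18, the share of KRT19 in type I (KRT18 + KRT19) and the share of KRT7 in type II (KRT7 + KRT8) RPKM (horizontal axes, linear from 0) in each of the 11 libraries (1 bar each). The KRT19 share is above control with both CCNE1 shRNAs in 5iLA (14.2% to 20.8% and 25.2%) and below it in t2iGo and primed H1.

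Other trophoblast genes were read from a list of 26. In 5iLA against primed H1, 5 of its 15 tested members were higher, 7 lower and 3 did not pass, where 7.74% of all tested genes were higher and 76.8% lower, with a median of -0.55 beside -1.23 for all genes. Among those higher were PPARG, a nuclear receptor of the placenta, at 1.75 ± 0.23, the growth factor gene PGF at 1.40 ± 0.36, HAND1 at 1.29 ± 0.25 and MSX2 at 0.87 ± 0.24 (limma, adjusted p from 2.24e-05 to 0.00532). PPARG and PGF were also higher in 5iLA than in t2iGo, at 1.93 and 1.80, and may have met the filter through 5iLA. Their calls, and the count of 5, are therefore given with no weight. The 4 most abundant were ITGA6 at -1.56, IGF2BP3 at -2.58 and the Hippo pathway coactivator gene YAP1 at -2.27, which were lower (limma, adjusted p = 1.08e-05, 1.22e-06 and 7.69e-07), and its partner TEAD4 at 0.15 (limma, adjusted p = 0.634). ITGA6 lay near the median of all genes. The other lower genes of the list are not named here. For the CCNE1 shRNAs in 5iLA 0 of the 15 passed, 9 were above 0 and the median was 0.11 beside -0.32. PGF, HAND1 and PPARG were chosen here after their values were seen. PGF was at 1.18 RPKM with control, 5.10 with uCCNE1 and 7.19 with pCCNE1, HAND1 at 0.495, 1.73 and 2.72, and PPARG at 1.71, 3.35 and 4.51 (limma, adjusted p = 0.171 each). Over the whole list, 16 of 26 were above control in both libraries and 4 below in both. ELF5 and TP63, markers of trophoblast stem cells and cytotrophoblast that were likewise chosen, reached only 0.235 and 0.727 RPKM in their highest library.

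Genes of the syncytium and of extravillous cells were mostly too low to test, and 4 of 23 passed the filter (CGA, GDF15, MMP2 and SDC1). CGA, the alpha chain of chorionic gonadotropin, was at 39.5, 51.9 and 41.96 RPKM in 5iLA (control, uCCNE1, pCCNE1), 17.5 in untreated 5iLA, and listed at 0 in all 3 primed H1 libraries. It was higher in 5iLA than in primed H1 by 5.50 ± 0.23 and at 0.23 ± 0.24 for the CCNE1 shRNAs there (limma, adjusted p = 5.52e-09 and 0.572). Its entry into the test came through 5iLA, so the call against primed H1 is given with no weight. GDF15 had values below control, 3.93 and 4.09 against 8.50 RPKM (limma, adjusted p = 0.171). HSD3B1 and CYP19A1, enzymes of placental steroid synthesis, and the syncytin gene ERVFRD-1 were named after their values were seen. HSD3B1 was at 0.404, 2.34 and 1.48 RPKM, CYP19A1 at 0.145, 1.14 and 1.38 and ERVFRD-1 at 0.528, 1.60 and 1.38. Of the 23 genes of that list found in the tables, 13 were above control in both 5iLA libraries and 4 below, and among 12 amnion genes 9 were above and 0 below. BAMBI, an amnion-list inhibitor of TGF-beta receptors, was at 5.53, 10.7 and 12.5 RPKM (limma, adjusted p = 0.171). As beside the 9 genes, 15.0% of all genes were above control in both.

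Relatives of the regulators were read as a further list. Among 9 other GATA, AP-2 and CDX genes, 3 were above control in both 5iLA libraries and 2 below, beside 15.0% and 45.5% of all genes. CDX1 was at 0.485, 1.75 and 2.05 RPKM in 5iLA, CDX4 was at 2.38 to 4.64 RPKM in primed H1 and listed at 0 elsewhere, and GATA4 and GATA6 were highest in t2iGo, at 1.03 to 2.05 RPKM and 1.18 to 2.05 RPKM. The t2iGo libraries also had the highest endoderm sum, 72.6 RPKM with control, 176 with uCCNE1 and 164 with pCCNE1, against 2.49 to 12.3 in the other shRNA libraries; its part in the t2iGo keratin levels was not tested. Of 28 other keratin genes, 12 were listed at 0 in all 11 libraries. KRT5, KRT6A and KRT14, keratins of stratified epithelia chosen after their values were seen, had values above 0 in untreated 5iLA cells alone, at 0.0172, 0.161 and 0.0251 RPKM. In that library, the deepest, 1 read on a transcript of 2 kb is worth 0.0201 RPKM, so KRT5 and KRT14 stand at about 1 read.

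Genes that anchor keratins to the cell surface were read from a separate list. Of 12 genes of desmosomes and keratin linkers, 3 were above control in both 5iLA libraries and 3 below, where 15.0% and 45.5% of all genes were. By limma 0 of 8 tested passed, with a median of 0.07 beside -0.32 for all tested genes. DSP, desmoplakin, was at 33.2 RPKM with control, 29.95 with uCCNE1 and 36.2 with pCCNE1, and the desmosomal cadherin gene DSG2 at 18.2, 20.03 and 18.2 RPKM. DSC2 was at 10.1, 10.3 and 15.6 and JUP at 2.99, 2.66 and 3.74. Genes of epithelial adhesion lay mostly below control, 10 of 14 in both libraries beside the same 45.5%, and 0 passed (limma), with CDH1 (E-cadherin) at 93.8, 67.7 and 67.4 RPKM and EPCAM at 82.1, 54.7 and 49.1. Their median of -0.37 was near that of all genes.

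Markers of other cell states were measured in the same 5iLA libraries. Beside their counts, 15.0% of all genes were above control in both CCNE1 shRNA libraries and 45.5% below in both, and of the tested markers of these lists only ALPPL2 passed by limma. Of 15 fibroblast genes, 13 were above control in both CCNE1 shRNA libraries and 2 below, and their sum went from 5.57 to 23.2 (uCCNE1) and 17.3 RPKM (pCCNE1). As given above, the same sum was far higher in the H1 cultures. COL3A1, a fibrillar collagen, was at 0.269, 2.60 and 2.52 RPKM, VIM at 0.507, 2.09 and 1.60, and FAP, POSTN and DCN, chosen after their values were seen, were listed at 0 in control. Of the 14 naive genes 8 were below in both and 1 above, with sums of 1922, 1039 and 1075 RPKM, and ALPPL2 was lower at -2.33 ± 0.22 (limma, adjusted p = 0.0300). Of 11 core pluripotency genes 9 were below, with POU5F1 at 84.6, 44.2 and 51.2 RPKM. Of 15 primed-state genes 8 were above, with sums of 61.5, 77.8 and 75.95 RPKM. Of 13 endoderm genes 4 were above and 0 below, and of 12 surface ectoderm and neural crest genes 6 were above and 2 below. The part of these states, and of the large RPKM sum of the control library, in the keratin and GATA values was not tested.

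By the Pearson r of log2(RPKM + 1) over 9 libraries, after the mean of each culture was subtracted, the gene nearest in pattern to GATA2 was PGF at 0.97, that to GATA3 was F3 at 0.99 and that to TFAP2C was DDIT4 at 0.98. For KRT19 it was CCKBR at 0.98, for KRT8 LOC100329109 at 0.96, for KRT18 NAIP at 0.95, for KRT7 NEBL at 0.99, for TFAP2A BICD1 at 0.98 and for CDX2 the short RNA SNORA77 at 0.98. Without that subtraction, RTL1 was nearest to GATA2 at 0.99. PACS1 was among the 3 nearest to both KRT8 and KRT19. Among the 9 genes themselves, KRT8 lay nearest to KRT19 (0.92) and GATA2 (0.91), and TFAP2C was opposed to KRT18 (-0.80). Only 3 libraries stand behind each culture, they share the control, and the values describe likeness in these libraries alone.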

How the data were processed

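The authors deposited RPKM values per gene in 2 tables of 23287 genes, 9 shRNA and 2 untreated libraries, and no level was tested across them. Per the submitters' processing notes, build hg19, TopHat2 2.3.0 and Cufflinks 1.2.1 were used, with roles and strand setting not given in the sources used here. RNA was extracted with RNeasy and libraries were made with TruSeq kits, per the labels' protocols.

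Depth (6.28 to 24.9 M reads) and reads per gene were estimated from the RPKM of 1 read and GENCODE lengths, matched for 94.1% of genes. The 95% Poisson intervals cover counting error only, and PCR copies are not independent molecules. RPKM were analysed as log2(RPKM + 1) with limma 3.58.1 in R 4.3.3 (trend), filtered on mean RPKM (minimum 1), with Benjamini-Hochberg adjustment and a threshold of 0.05. One model held culture and shRNA (4 residual degrees of freedom), the other culture and arm within culture (3), where the single control is assumed to vary like the other libraries. The scripts were tested on simulated data. Alternatives were a pseudocount of 0.1, no filter, quantile, median-ratio and protein-coding rescaling, and leaving out each culture or shRNA. All 9 genes were named, with up to 4 of the most abundant genes of each list, part of the list genes past the threshold, genes nearest in pattern and CCNE1. The genes and lists were chosen with earlier results of these data known. One list gene past the threshold is not reported here.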

Additional observations from a re-analysis of the deposited data

Results flagged for a closer look

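For the genes below, both CCNE1 shRNA libraries moved one way from control in one culture and both moved the other way in another. The difference between these pairs of cultures was not tested, and the test of 5iLA against the mean of the other cultures did not pass for any of them (limma, adjusted p = 0.368 to 0.819). KRT19 had a mean effect of 1.43 in 5iLA, -0.64 in t2iGo and -0.86 in primed H1, which makes differences of 2.07 and 2.29 in log2(RPKM + 1). KRT8 had 1.03, -0.39 and -0.33, and the differences were 1.42 and 1.36. KRT7 had 0.23 in 5iLA and -0.996 in primed H1, a difference of 1.22 that rests on 6 to 11 estimated reads in 5iLA. TFAP2C had -0.36 in 5iLA, 0.03 in t2iGo and -0.42 in primed H1, so that 5iLA minus t2iGo was -0.39 and t2iGo minus primed H1 was 0.44. In t2iGo it was at 100.4% of control with pCCNE1 and 103.9% with uCCNE1, with overlapping counting intervals, so no move is shown there. Its sign in 5iLA depends on the scaling.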

How the results depend on the processing

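No paired analysis was possible because the labels carry no replicate numbers to block on; the fits over cultures compare the shRNAs with culture as a term. Over 98 results, 395 alternative values kept direction and side of the threshold, 17 lost the call, 4 gained it, 25 reversed and 81 moved. The cause was not tested, except that fewer libraries or another set of tested genes is part of some alternatives by construction.

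Counts of genes passing by limma moved as follows. Over cultures, pCCNE1 went from 0 to 6 without primed H1 libraries and 94 without t2iGo, uCCNE1 from 0 to 4 and 123, and pCCNE1 against uCCNE1 from 0 to 40 without t2iGo. With no filter, 5iLA went from 6 to 254, t2iGo from 6 to 167, primed H1 from 7 to 318 and the 5iLA effect minus the others from 6 to 504. A pseudocount of 0.1 gave 16 in primed H1. The 5iLA effect minus the others gave 3 with that pseudocount and under each of the 3 rescalings. Of 54 differences of the 9 genes between single libraries, 5 reached 1 as deposited, 14 with the pseudocount of 0.1, 11 with median-ratio, 10 with protein-coding and 9 with quantile scaling.

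Signs turned for these values. TFAP2C in 5iLA became 0.12, 0.086 and 0.13 under quantile, median-ratio and protein-coding scaling, and its 5iLA effect minus the others 0.20, 0.23 and 0.22. Its pCCNE1 effect over cultures became 0.0098 and 0.029 under quantile and protein-coding scaling. KRT19 with pCCNE1 over cultures became 0.047 with protein-coding scaling, 0.32 without primed H1 and 0.14 without t2iGo, and with uCCNE1 -0.46 without 5iLA. KRT8 became -0.43 with pCCNE1 and -0.29 with uCCNE1 without 5iLA. KRT7 became 0.058 with pCCNE1 without primed H1, and with uCCNE1 0.21 both there and with the pseudocount of 0.1. Between t2iGo and primed H1, KRT8 became 0.27, 0.13 and 0.49 and KRT18 1.004, 0.79 and 1.15 under quantile, median-ratio and protein-coding scaling, and KRT18 0.049 without uCCNE1 and 0.018 without pCCNE1 libraries. KRT7, not called between 5iLA and t2iGo as deposited, passed at 0.78 with quantile scaling (limma, adjusted p = 0.0256). At 0 to 21 reads in most libraries, depth limits CDX2 and, outside 5iLA, GATA2, GATA3 and TFAP2A.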
